A study of Homo sapiens with 6 samples.

Results

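The genes described here encode the machinery that switches leukocyte integrins on and couples them to actin. They are the integrin activators kindlin-3 (FERMT3) and talin (TLN1), the subunits ITGA4, ITGB1, ITGB2, ITGAL and ITGB5, the actin linker vinculin (VCL), the integrin-linked kinase (ILK) and the integrin ligand ICAM1. They were chosen by name as 10 genes of this function, with the difference between the study's groups already known. Of these, 9 have values among the 12760 genes of the table, and all 9 passed the filter on low values. ITGB2 was not analysed here.

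Values come from RNA-seq of 6 cultures of MM.1S, a human myeloma cell line, in 2 groups of 3. The WT group was kept in the solvent dimethyl sulfoxide (DMSO). The LenR group was selected in lenalidomide, a drug that redirects the cereblon ubiquitin ligase to new protein targets, from 10 nM with a 10-fold rise each month for 3 months. Both groups carry the same genotype label, WT, and derive from 1 line. Nothing in the labels says whether the drug was still present at harvest or whether the LenR cultures were separate selections, so the tests measure the spread between cultures only.

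Integrins are pairs of an alpha and a beta subunit that stay folded and weakly binding until talin and a kindlin bind the short cytoplasmic tail of the beta subunit. Kindlin-3 is the kindlin of blood cells, and its loss in humans causes leukocyte adhesion deficiency type III, with poorly activated integrins on leukocytes and platelets. In myeloma, alpha4 integrins hold plasma cells to VCAM1 and fibronectin in the bone marrow stroma, and LFA-1, the pair of ITGAL and ITGB2, binds ICAM1 on neighbouring cells.

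Reads worked out from the values totalled 14497346 to 17384388 per library. On the second principal component (26.8% of the variance), WT replicate 3 (−14) and LenR replicate 2 (−13.7) stood apart from the other libraries. LenR replicate 3 lay at its opposite end (12.7), LenR replicate 1 was at 2.62, and WT replicates 1 and 2 lay close together (5.79 and 6.62). All 8 plasma cell markers looked for had values, with a summed level of 1961 to 2020 FPKM in WT and 2302 to 2524 FPKM in LenR. By limma, 5 of them passed adjusted p 0.05 as higher in LenR, against 8.57% of all genes tested. MZB1 and TNFRSF17 overlapped between the groups. POU2AF1 went the other way without passing, at 115 to 122 FPKM in WT and 108 to 112 FPKM in LenR. FPKM count fragments relative to the length of the gene and the size of the library, so levels can be compared between genes. Marker sums for other cells were low: 3.07 to 4.11 FPKM for T and NK cells (2 of 8 markers with values) and 0.675 to 1.03 FPKM for megakaryocytes and platelets, which also use kindlin-3 (1 of 7). For myeloid cells only CD68 had values (1 of 8 markers), at 12.9 to 16.6 FPKM in WT and 17.3 to 19.3 FPKM in LenR, and no epithelial marker of 5 was analysed here. For stromal and endothelial cells 3 of 7 markers had values, with a sum of 4.09 to 4.71 FPKM in WT and 4.90 to 5.90 FPKM in LenR. The part of these markers in the results below was not tested.

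The RefSeq promoters of the genes with the lowest and the highest difference, FERMT3 and ICAM1, are shown because the other 7 genes differed far less. Each runs 5′ to 3′ over the 250 bases before the RefSeq start, on the plus strand of GRCh38.p14, at chr11:64206471-64206720 and chr19:10270870-10271119. Capitals mark motif matches.
FERMT3: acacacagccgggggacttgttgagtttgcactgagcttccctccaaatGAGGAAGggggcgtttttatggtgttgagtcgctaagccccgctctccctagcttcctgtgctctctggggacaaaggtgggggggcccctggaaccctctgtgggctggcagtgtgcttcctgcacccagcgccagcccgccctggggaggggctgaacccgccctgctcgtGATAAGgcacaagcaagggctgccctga
ICAM1: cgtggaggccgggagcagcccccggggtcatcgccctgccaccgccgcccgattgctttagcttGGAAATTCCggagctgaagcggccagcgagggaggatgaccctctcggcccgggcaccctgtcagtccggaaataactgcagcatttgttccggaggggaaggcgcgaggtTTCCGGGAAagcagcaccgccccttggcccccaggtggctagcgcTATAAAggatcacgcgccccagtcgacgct
The FERMT3 window holds GAGGAAG, a core of the PU.1 type of ETS motif, starting 201 bases before the start, and a motif of the GATA factors with the letters GATAAG, which starts 28 bases before it. In the ICAM1 window, GGAAATTCC, which matches the letters GGAANTTCC of an NF-kB type motif, starts 186 bases before the start. Further down it holds TTCCGGGAA, which matches the letters TTCNNNGAA of a STAT type motif, from 75 bases before the start, and a TATA box (TATAAA) from 30 bases before it.

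Motifs were searched on both strands in 1 promoter for each of 27305 genes. The PU.1 type motif was present in 3017 of them, the GATA motif in 5.65%, the STAT type motif in 6.78%, the TATA box in 11.1% and the NF-kB type motif in 0.831%. A window was found for 8 of the 10 genes. Among these 8, the first 2 motifs were found in FERMT3 only and the other 3 in ICAM1 only. A CArG box, the motif of the serum response factor SRF, was in 1.14% of all promoters and in none of these 8. The motif patterns were a short list set by hand, so where they were found is a description only. The 2 windows begin from RefSeq starts. GENCODE 29 places the first base of ICAM1 at 10270835 and that of FERMT3 at 64206678, so its transcripts start inside or before these windows.

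FERMT3 transcripts were far less abundant in LenR than in WT. FERMT3 lies on chromosome 11 (64206678 to 64223886, GRCh38) and measured 47.2, 44.4 and 53.0 FPKM in WT replicates 1 to 3 against 11.1, 11.8 and 8.67 FPKM in LenR replicates 1 to 3. All 3 LenR libraries lay below all 3 WT libraries, with LenR replicate 3 lowest and WT replicate 3 highest. The mean went from 48.2 ± 4.42 to 10.5 ± 1.65 FPKM (SD, n = 3 per group), which is 4.57-fold lower in LenR, and the difference was 8.51 times the larger SD. The log2 fold change of log2(FPKM + 1) was −2.10 (SE 0.12), the lowest of the 11276 genes tested. This rank depends on the added 1, which compresses less abundant genes more. In plain FPKM, the mean of PVR fell by a larger ratio, from 9.08 in WT to 1.82 in LenR. The log2 fold change of FERMT3 stayed between −2.20 and −1.98 in the 18 alternative fits, though some of these cannot move a fold change. FERMT3 was covered by 1877 to 2113 reads in WT and 387 to 478 reads in LenR, so counting error was small beside the difference. In bulk RNA, fewer cells that make a transcript and less of it per cell cannot be told apart.

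Among 185 tested genes within 5 Mb, the median log2 fold change was 0.02. Nearest were TRPT1, which overlaps the end of FERMT3 by 88 exon bases on the opposite strand (log2 fold change 0.19, adjusted p = 0.133), NUDT22 (0.22, adjusted p = 0.212) and STIP1 upstream (−0.12, adjusted p = 0.362). None of these 3 neighbours passed the limma test with Benjamini-Hochberg adjustment.

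The other kindlins were below FERMT3 in every WT library, while in LenR FERMT1 came close to it and exceeded it in replicate 3 (8.84 against 8.67 FPKM). FERMT1 (kindlin-1, the kindlin of epithelia) rose from 5.73 ± 0.238 to 9.19 ± 0.446 FPKM (SD, n = 3; the log2 difference was 0.60, SE 0.065, adjusted p = 0.000767 by limma). FERMT2 (kindlin-2, the broadly expressed kindlin) was below the filter, at 0.944 to 0.974 FPKM in WT and 0.619 to 0.972 FPKM in LenR. FERMT3 made up 89.4% ± 0.468 of the FERMT1 and FERMT3 transcripts in WT and 53.2% ± 3.19 in LenR, from their FPKM. Their sum was 53.9 ± 4.66 FPKM in WT and 19.7 ± 2.04 FPKM in LenR, so the added FERMT1 was small beside the difference in FERMT3.

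Talin works with kindlins at the same beta tails, and the levels of its gene overlapped between the groups. TLN1 (chromosome 9, 35696948 to 35732395) measured 55.4, 54.8 and 67.0 FPKM in WT replicates 1 to 3 and 53.7, 60.8 and 47.4 FPKM in LenR replicates 1 to 3. The groups overlapped, with the highest LenR library above 2 of the 3 WT libraries. The log2 fold change was −0.13 (SE 0.12), and the difference of the means in FPKM was under 1 SD of either group. The ratio of TLN1 to FERMT3 in FPKM was 1.17 to 1.26 in WT and 4.84 to 5.46 in LenR. TLN2, the other talin, was listed below 0.166 FPKM in every library.

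ILK, a pseudokinase that binds kindlins and forms a scaffold with PINCH and parvin proteins, was at overlapping levels as well. ILK measured 32.4, 33.5 and 39.7 FPKM in WT replicates 1 to 3 and 33.4, 34.2 and 31.7 FPKM in LenR replicates 1 to 3. The LenR range lay inside that of WT apart from LenR replicate 3, which was the lowest of all, and the log2 fold change was −0.08 (SE 0.089). ILK (chromosome 11, 6603708 to 6610874) shares 2374 exon bases with TAF10 on the opposite strand. Strand use in the counting is not given in the sources used here, so reads of these genes cannot be told apart.

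**Figure D1:**
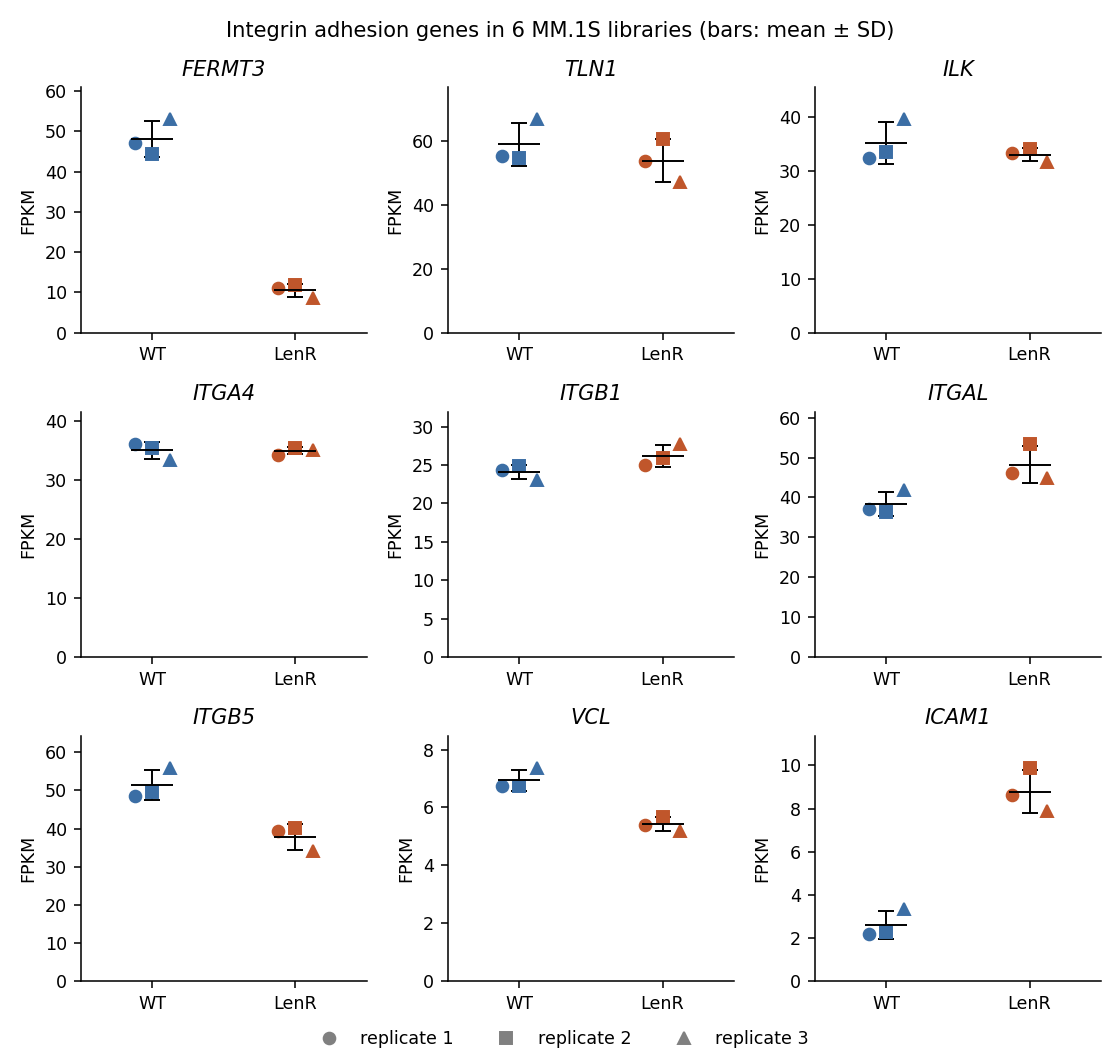
FPKM of each of the 9 genes in the 6 libraries, with WT in blue and LenR in orange, marker shapes for replicate numbers, and bars for the mean ± SD of 3 libraries; each vertical axis starts at 0. FERMT3 drops from 44.4 to 53.0 FPKM in WT to 8.67 to 11.8 FPKM in LenR, ICAM1 goes the other way, and TLN1, ILK and ITGA4 overlap between the groups.

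VCL encodes vinculin, which talin recruits once it is stretched and which strengthens the link to actin. VCL (chromosome 10, 73995193 to 74121363) measured 6.73, 6.73 and 7.36 FPKM in WT replicates 1 to 3 and 5.41, 5.67 and 5.18 FPKM in LenR replicates 1 to 3. Every LenR library lay below every WT library, by a modest margin. The log2 fold change was −0.31 (SE 0.066), a 1.28-fold lower mean. VCL shares 1109 exon bases with AP3M1 on the opposite strand.

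Neither of the alpha subunits, ITGA4 and ITGAL, passed the fit across all genes. ITGAL passed in 4 of the 18 alternative fits and ITGA4 in 0. ITGA4 encodes the alpha4 chain, which pairs with beta1 to form VLA-4 or with beta7 to form a gut-homing receptor. ITGA4 (chromosome 2, 181457202 to 181536187) measured 36.2, 35.5 and 33.5 FPKM in WT replicates 1 to 3 and 34.4, 35.6 and 35.1 FPKM in LenR replicates 1 to 3. LenR values fell wholly inside the WT range, the log2 fold change was 0.00 (−0.0017, SE 0.064), and the SDs were 1.43 and 0.617 FPKM. This made ITGA4 the steadiest of the 9 genes between the groups.

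ITGAL encodes the alpha chain of LFA-1. ITGAL (chromosome 16, 30472658 to 30523185) measured 37.0, 36.4 and 41.8 FPKM in WT replicates 1 to 3 and 46.1, 53.5 and 44.8 FPKM in LenR replicates 1 to 3. All LenR values were above all WT values, and the mean was 1.25 times that of WT (log2 fold change 0.32, SE 0.092). The lowest LenR library, replicate 3, was 44.8 FPKM against 41.8 FPKM in WT replicate 3, so the groups were close.

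Among the beta subunits, ITGB5 was lower in LenR, and ITGB1 did not pass the fit across all genes. ITGB5 encodes the beta5 chain, which pairs with alphav to bind vitronectin. ITGB5 (chromosome 3, 124761948 to 124901418) measured 48.6, 49.7 and 55.9 FPKM in WT replicates 1 to 3 and 39.3, 40.3 and 34.0 FPKM in LenR replicates 1 to 3. The groups were well apart, with a log2 fold change of −0.43 (SE 0.091) and a mean 1.36-fold lower in LenR. ITGAV, the alpha partner of beta5, stood at 4.18 ± 0.310 FPKM in WT against 3.90 ± 0.341 FPKM in LenR and did not pass (log2 fold change −0.08, adjusted p = 0.565 by limma).

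ITGB1 encodes the common beta1 chain. ITGB1 (chromosome 10, 32900319 to 33005792) measured 24.3, 24.8 and 23.0 FPKM in WT replicates 1 to 3 and 25.0, 25.9 and 27.8 FPKM in LenR replicates 1 to 3. The groups just failed to overlap, with 24.8 FPKM as the highest WT value and 25.0 FPKM as the lowest LenR value. Its log2 fold change was 0.12 (SE 0.069).

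ITGB7, which is not among the 10 genes, outweighed every other integrin subunit tested. This beta7 chain, a partner of ITGA4 and ITGAE and a known target of the MAF transcription factor in myeloma, measured 7179, 7181 and 8280 FPKM in WT replicates 1 to 3 and 7901, 7613 and 6663 FPKM in LenR replicates 1 to 3. It ranked 2 of all 12760 genes by mean level and did not pass between the groups (log2 fold change −0.03, SE 0.14, adjusted p = 0.918 by limma). ITGB7 accounted for 99.0% of the summed FPKM of the 5 beta subunits tested in WT and 99.1% in LenR. ITGB2, ITGB3 and ITGB6 were not analysed here and are not in this sum. The ratio of ITGB7 to ITGA4 was 216 ± 27.4 in WT and 211 ± 20.4 in LenR, and that of ITGA4 to ITGB1 was 1.46 ± 0.0284 and 1.34 ± 0.0627.

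**Figure D2:**
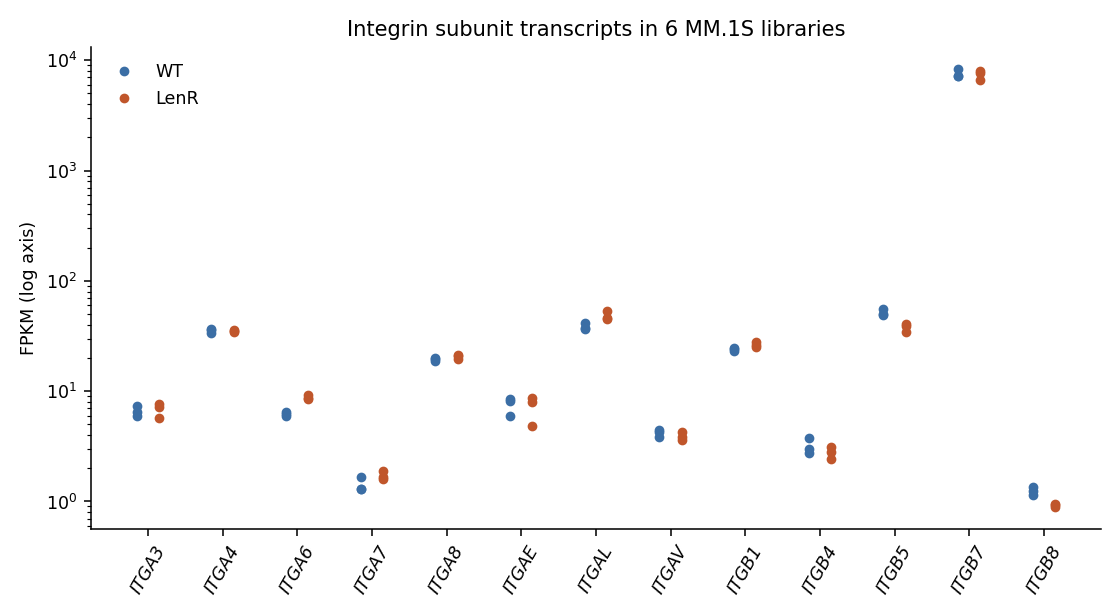
FPKM on a log axis of the 13 integrin subunits tested, with 3 WT libraries in blue and 3 LenR libraries in orange for each. ITGB7 lies at 6663 FPKM or more in every library while every other subunit lies at 55.9 FPKM or less. The groups do not overlap for ITGA6, ITGAL, ITGB1, ITGB5 and ITGB8.

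ICAM1 was higher in LenR. ICAM1 is an immunoglobulin-family ligand of LFA-1, induced in many cells by NF-kB and interferon signalling. ICAM1 (chromosome 19, 10270835 to 10286615) measured 2.19, 2.29 and 3.37 FPKM in WT replicates 1 to 3 and 8.61, 9.88 and 7.88 FPKM in LenR replicates 1 to 3. The lowest LenR library was more than double the highest WT library, and the mean went from 2.62 ± 0.656 to 8.79 ± 1.01 FPKM (SD, n = 3), a 3.36-fold difference. Its log2 fold change of 1.45 (SE 0.13) was the 27th highest of 11276 genes, or 1.78 on the recovered reads, since the added pseudocount of 1 compresses a low gene. Between 123 and 160 reads covered ICAM1 in WT libraries and 407 to 508 in LenR libraries. WT replicate 3, the highest WT library, also stood apart in the second principal component. Without it the log2 fold change was 1.59.

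The neighbouring ICAM genes on chromosome 19 gave mixed values. ICAM5 rose from 0.708 ± 0.0774 to 1.48 ± 0.291 FPKM (the log2 difference was 0.53, SE 0.099, adjusted p = 0.0094 by limma). It reached the filter on low values only through LenR, and its adjusted p without the filter was 0.00617. ICAM3, a leukocyte ligand of LFA-1 with a much higher level, stood at 137 ± 13.8 FPKM in WT against 108 ± 7.25 FPKM in LenR and did not pass (−0.34, adjusted p = 0.0537). ICAM2, which lies on chromosome 17 and is no neighbour of ICAM1, stood at 16.8 FPKM in WT against 19.7 FPKM in LenR (0.22, adjusted p = 0.0695). The 157 tested genes within 5 Mb of ICAM1 had a median log2 fold change of 0.00 (−0.0018). ICAM1 shares 815 exon bases with the opposite-strand gene AC011511.5.

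By the fit across all genes, 4 of the 9 genes passed adjusted p 0.05, ICAM1 higher and FERMT3, ITGB5 and VCL lower in LenR. Of all 11276 genes tested, 15.1% passed, 8.57% higher and 6.57% lower. The genes were chosen from this contrast, so the count supports nothing and no p-value is given for them. Groups did not overlap for 6 of the 9, against 34.5% of all genes. Leaving out replicate 1 or 2 of WT, or replicate 1 or 3 of LenR, took VCL out of this count (log2 fold changes −0.32, −0.33, −0.31 and −0.28), as did averaging WT replicates 1 and 2 (−0.33). ITGB5 dropped out when replicate 2 of WT or replicate 1 of LenR was removed (−0.45 and −0.46). The median log2 fold change of the 9 was −0.08 and that of all genes 0.00 (−0.0023).

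**Figure D3:**
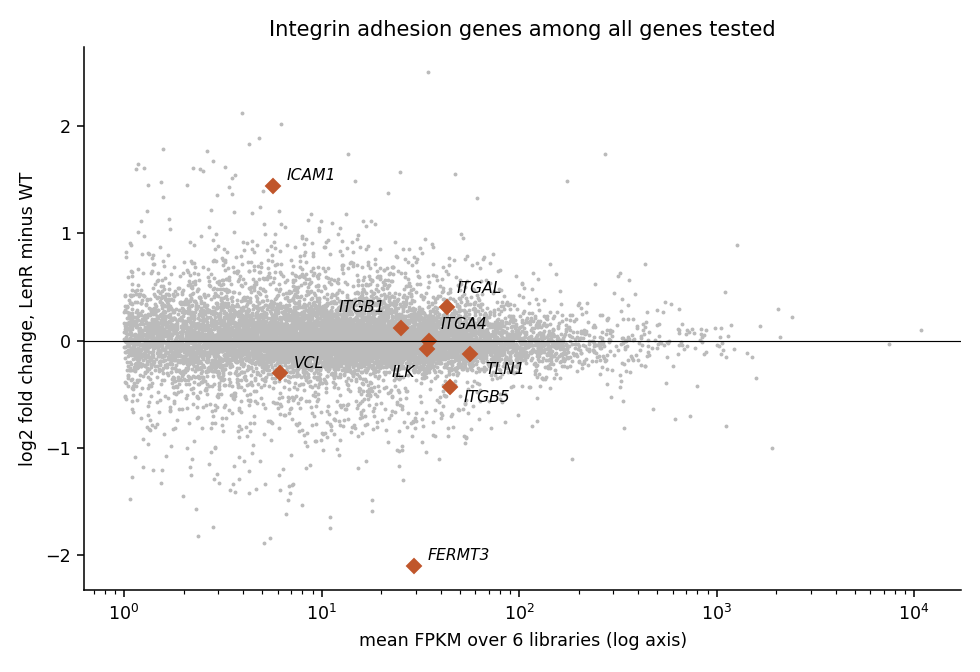
Log2 fold change (LenR minus WT) against mean FPKM over the 6 libraries on a log axis, for the 11276 genes tested in grey and the 9 genes as orange diamonds. FERMT3 is the lowest point of the plot, ICAM1 lies near the upper edge, and the other 7 lie between −0.43 and 0.32.

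The order of the levels shifted with these differences. In WT, TLN1 was highest (59.1 FPKM), followed by ITGB5 (51.4), FERMT3 (48.2), ITGAL (38.4), ILK (35.2), ITGA4 (35.1), ITGB1 (24.1), VCL (6.94) and ICAM1 (2.62). Library ranges of TLN1 and ITGB5, of ITGB5 and FERMT3, of ITGAL and ILK, and of ILK and ITGA4 overlapped, so these neighbours were not separated. In LenR the order was TLN1 (54.0), ITGAL (48.1), ITGB5 (37.9), ITGA4 (35.0), ILK (33.1), ITGB1 (26.2), FERMT3 (10.5), ICAM1 (8.79) and VCL (5.42). There, TLN1 and ITGAL, ITGB5 and ITGA4, and FERMT3 and ICAM1 overlapped.

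The larger differences were similar between WT replicate 3 and LenR replicate 2, both low on the second component, and in the other 4 libraries. This split was taken from these same data. The first comparison holds 1 library per group, and the other 4 libraries include LenR replicate 3 from the opposite end of the component. Between WT replicate 3 and LenR replicate 2 the log2 fold changes of FERMT3, ICAM1, ITGB5, ITGAL and VCL were −2.08, 1.31, −0.46, 0.35 and −0.33. In the other 4 libraries they were −2.11, 1.51, −0.42, 0.30 and −0.30, in the same order of genes. The groups did not overlap for any of these genes, so the same sign in both parts was fixed in advance. For ILK the values were −0.21 and −0.02, and for ITGA4 0.09 and −0.05, so the small differences of these genes depended on the libraries compared.

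The 5 genes whose pattern over the 6 libraries was closest to FERMT3 were PVR, GPAT2, SERPINB6, AHNAK and CYTH4. Closeness was the Euclidean distance between log2(FPKM + 1) values centred on each gene's mean, over the 8310 genes whose mean reached 5 FPKM, and was 0.396, 0.569, 0.609, 0.671 and 0.702. PVR, a poliovirus receptor family adhesion molecule, stood at 9.08 ± 0.302 FPKM in WT against 1.82 ± 0.149 FPKM in LenR. AHNAK, a large scaffold protein under the plasma membrane, measured 27.6 FPKM in WT against 8.48 FPKM in LenR. The log2 fold changes of these 5 genes lay between −1.84 and −1.53. The search matched the pattern of FERMT3 over these same libraries, so such falls follow from it and are no separate result.

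The other genes of the pathway came from 9 lists by role, written with earlier results of these data known. Their counts are therefore a description, and an excess over all genes was not tested. Of 98 tested genes outside the 10, 19 rose and 10 fell past adjusted p 0.05 by limma, which is 19.4% and 10.2%, against 8.57% and 6.57% of all genes. Their median log2 fold change was −0.01. These numbers depended on single libraries: 15 passed when replicate 1 of WT was removed, 15 when replicate 2 of WT was removed and 17 when replicate 1 of LenR was removed. Of the 29, 22 had chromosome neighbours within 5 Mb with a median log2 fold change smaller than 0.3 in size. The share over all genes was not worked out, so this count is a description only.

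Among 19 other integrin activators and inhibitors, 2 rose and 5 fell. FERMT1 and SHARPIN rose, SHARPIN being an inhibitor that binds alpha tails (22.3 ± 2.09 to 38.0 ± 5.07 FPKM, 0.74 on the log2 scale, adjusted p = 0.00382). The 58 genes around SHARPIN on chromosome 8 had a median of 0.49. SKAP2, an adaptor that carries RIAM to integrins in myeloid cells, fell from 13.7 ± 1.18 to 7.05 ± 0.400 FPKM (−0.87, adjusted p = 0.000387), with a median of −0.55 over 32 neighbours on chromosome 7. FLNA, the filamin that competes with talin for beta tails, fell from 95.2 ± 10.9 to 65.4 ± 10.5 FPKM (−0.54, adjusted p = 0.0311), and the talin competitor DOK1 fell as well (−0.28, adjusted p = 0.0422).

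Calls of FLNA and DOK1 were not stable when libraries were left out. The adjusted p of FLNA by limma became 0.0626, 0.0697 or 0.073 when WT replicate 1, 2 or 3 was removed, and 0.0956 or 0.0547 when LenR replicate 1 or 3 was removed. That of DOK1 became 0.148 or 0.162 on removal of WT replicate 1 or 2, and 0.104 or 0.0963 on removal of LenR replicate 2 or 3. The remaining 2 that fell were SKAP1 (−0.26) and KRIT1 (−0.23), named after their values were seen, with adjusted p up to 0.198 for SKAP1 and 0.182 for KRIT1 with 1 library left out. KRIT1 lost its call on removal of any of the 6, and SKAP1 on removal of any but WT replicate 3. RAP1B, the small GTPase that brings talin to the membrane, differed by −0.18 on the log2 scale (adjusted p = 0.238) and its effector APBB1IP (RIAM) −0.12 (adjusted p = 0.634). RASSF5 (RAPL), the RAP1 effector that acts on LFA-1 and the most abundant of this list, measured 124 ± 10.7 and 131 ± 13.6 FPKM (0.07, adjusted p = 0.703).

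Adaptors and actin linkers held the highest fold change of the pathway. Of 17 genes besides VCL, 4 rose and 2 fell. TRIP6, a zyxin-family LIM protein of focal adhesions, rose from 1.48 ± 0.386 to 8.14 ± 1.01 FPKM (the log2 difference was 1.89, SE 0.13, adjusted p = 0.000119 by limma), which is 5.49-fold. EVL, an Ena/VASP protein of leukocyte actin, rose from 3.63 ± 0.216 FPKM to 8.87 ± 1.15 FPKM (1.09, adjusted p = 0.000296). PXN, encoding the adaptor paxillin, rose from 17.4 ± 1.67 to 28.7 ± 4.29 FPKM (0.68, adjusted p = 0.00572), where 77 neighbours on chromosome 12 had a median of 0.33.

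PDLIM1, a LIM protein that binds alpha-actinin, fell from 119 ± 4.01 to 88.3 ± 3.12 FPKM (−0.42, adjusted p = 0.00545 by limma). SORBS3 (vinexin), a partner of vinculin, fell from 2.35 ± 0.570 to 1.39 ± 0.208 FPKM (−0.48, adjusted p = 0.046), and its adjusted p became 0.12 or 0.0852 on removal of WT replicate 1 or 3 and 0.151 or 0.108 on removal of LenR replicate 1 or 3. ENAH, the other Ena/VASP gene that rose (0.34), was named after its value was seen and had adjusted p up to 0.0841 on removal of WT replicate 2 or 3 or LenR replicate 1 or 3. LPXN (leupaxin), the paxillin relative of leukocytes and the most abundant gene here, measured 146 ± 4.42 and 128 ± 3.35 FPKM and did not pass (−0.18, adjusted p = 0.126). ACTN1 was below the filter, at 1.13 to 1.44 FPKM in WT and 0.109 to 0.266 FPKM in LenR, and was named after its values were seen.

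Of 19 kinases, phosphatases and their partners, 4 rose and 2 fell. PTPN11, the phosphatase SHP-2, rose from 17.3 ± 0.887 to 28.4 ± 0.899 FPKM (the log2 difference was 0.69, adjusted p = 0.000466 by limma), and the paxillin partner GIT2 from 10.6 ± 0.851 to 15.8 ± 1.37 FPKM (0.54, adjusted p = 0.0043). Both lie on chromosome 12, among neighbours with median log2 fold changes of 0.57 and 0.58. SRC rose (0.49, adjusted p = 0.0396), and the related kinase FYN (−0.26, adjusted p = 0.0226) and the phosphatase PTPN12 (−0.26, adjusted p = 0.0343) fell. Each of these 3 lost its call in 5 of the 6 fits with 1 library left out, with adjusted p up to 0.145, 0.11 and 0.114. The fits that kept the call were those without LenR replicate 3 for SRC and PTPN12 and without LenR replicate 2 for FYN. ASAP1, the remaining one that rose (0.32), was named after its value was seen, lies among chromosome 8 neighbours with a median of 0.45, and had adjusted p up to 0.127 on removal of any library but WT replicate 3. PTK2B (PYK2), the focal adhesion kinase relative of leukocytes, measured 261 ± 22.7 and 235 ± 28.7 FPKM (−0.15, adjusted p = 0.428).

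Few of the other subunits and partners passed. ITGA6, the laminin-binding alpha6 chain, rose from 6.18 ± 0.245 to 8.80 ± 0.386 FPKM (the log2 difference was 0.45, adjusted p = 0.00266 by limma) as 1 of 6 other alpha subunits, and none of the 3 other beta subunits passed. ITGA8 was the most abundant of those 6 (19.5 and 20.6 FPKM, adjusted p = 0.489). PARVG, the leukocyte parvin of the ILK complex, rose from 1.73 ± 0.195 to 2.53 ± 0.153 FPKM (0.37, adjusted p = 0.0168), with an adjusted p of 0.0633 or 0.0714 on removal of WT replicate 1 or 2. PARVB measured 50.6 and 51.5 FPKM (adjusted p = 0.895). Of 12 integrin-associated membrane proteins, CD37, a tetraspanin of mature B cells, fell from 34.3 ± 1.74 to 16.5 ± 1.40 FPKM (−1.02, adjusted p = 0.000198) and none rose. BSG (basigin), the most abundant of them, measured 234 ± 3.11 and 233 ± 13.4 FPKM (adjusted p = 0.966).

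Of 12 other leukocyte adhesion molecules, 6 passed as higher and none as lower, against 8.57% and 6.57% of all genes. The list was written with earlier results known, so an excess was not tested. When WT replicate 1 or WT replicate 2 was removed, only CD58 and CD226 of these 6 kept their calls. CD58 (LFA-3), the ligand of CD2, rose from 21.6 ± 1.72 to 35.8 ± 3.07 FPKM (the log2 difference was 0.70, adjusted p = 0.00162 by limma). CD226 (DNAM-1), a receptor of nectin-family ligands, rose from 0.464 ± 0.0827 to 1.59 ± 0.200 FPKM (0.82, adjusted p = 0.000639). CD226 reached the filter, and so this count, only through LenR, and its adjusted p without the filter was 0.000424. SELPLG, the P-selectin ligand PSGL-1, rose from 329 ± 55.0 to 542 ± 86.9 FPKM (0.72, adjusted p = 0.0182), among 80 neighbours on chromosome 12 with a median of 0.56. Its adjusted p became 0.0779 or 0.0748 on removal of WT replicate 1 or 2, 0.0765 on removal of LenR replicate 1, and 0.0729 with quantile normalization. The other 3 were SDC1 (0.45), CD99L2 (0.31) and CADM1 (0.26), named after their values were seen. SDC1 lost its call on removal of replicate 1 or 2 of either group (adjusted p up to 0.132), CD99L2 on removal of WT replicate 1 or 2 (up to 0.0774), and CADM1 on removal of any of the 6 (up to 0.152).

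**Figure D4:**
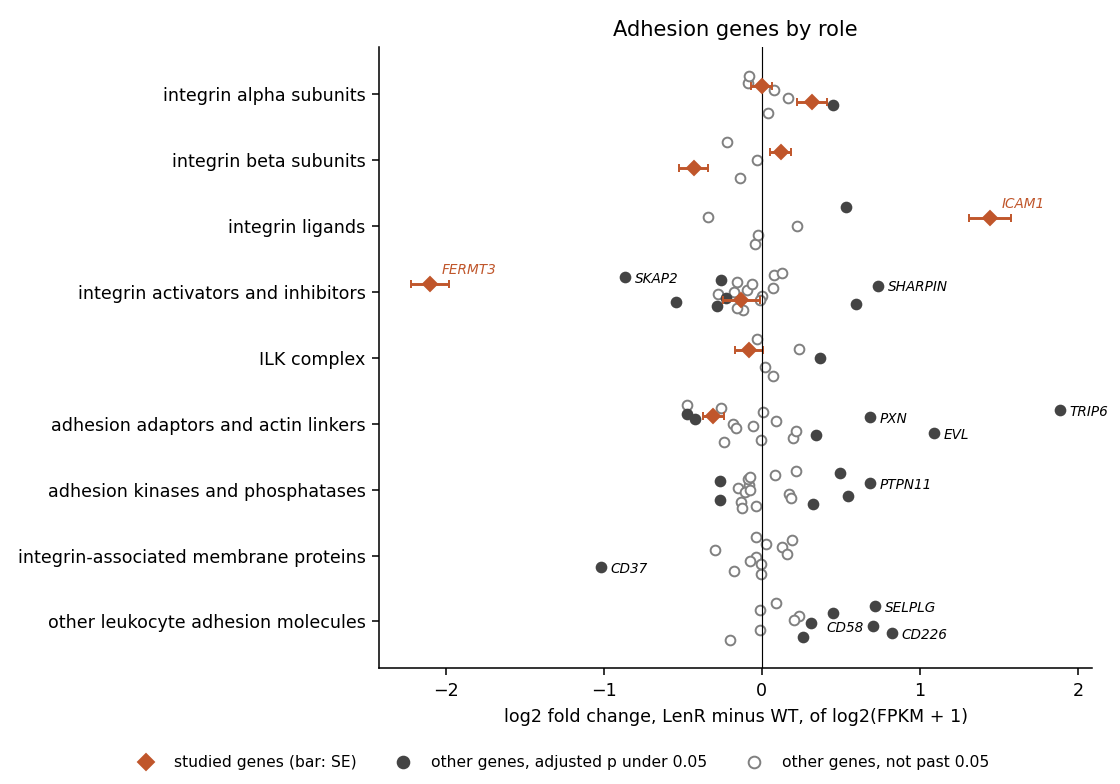
Log2 fold changes (LenR minus WT) of adhesion genes on the 9 lists: orange diamonds with SE bars are the 9 genes of the first paragraphs, filled circles are other genes with adjusted p under 0.05 by limma, and open circles are other genes that did not pass. FERMT3 at −2.10 lies far left of every other gene, and TRIP6 (1.89) and ICAM1 (1.45) lie farthest right.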

How the data were processed

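The authors deposited FPKM values, 1 column per library, for 12760 genes kept as expressed. Per the submitters' processing notes, the genome build was hg38 and the tools were the aligner HISAT2 2.2.1, the read counter featureCounts 2.0.3, edgeR 3.40.2 and the quality tool FastQC 0.11.9, with their settings and order unstated. The sources used here do not give the annotation, strand setting or expression filter. Columns were matched to samples through the sample descriptions.

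The FPKM values were tested as log2(FPKM + 1) for the 11276 genes whose mean reached 1 FPKM, with limma 3.58.1 (R 4.3.3; group as the only term, empirical Bayes with a trend), two-sided, with Benjamini-Hochberg adjustment over all genes and a threshold of 0.05. Each gene's values came in whole steps, from which whole reads were worked out for all 12760 genes within 0.03 of a read. Where all 6 reads of a gene share a common factor, they are understated by it. Positions came from GENCODE 29 (GRCh38) and promoters from RefSeq (GRCh38.p14). The fit was tested on simulated data. Figures used matplotlib 3.10.9.

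The genes, the role lists, the naming rule and the alternatives were chosen with earlier results of these data known. Named genes outside the 10 were, per list, up to 3 called genes in each direction and the most abundant gene, plus the 5 genes closest to FERMT3. The alternatives were other pseudocounts, filters, scalings and variance models, the replicate number as a block, voom on the recovered reads, and leaving out, averaging or adding a term for libraries.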

Additional observations from a re-analysis of the deposited data

How the results depend on the processing

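Some alternatives cannot move a log2 fold change in this design: other filters, the fit without the trend, the replicate block and the added term. They are included in the next count, so their agreement was fixed in advance. The log2 fold changes of the 9 genes moved by less than the spread between replicates in 160 of 162 alternatives. The exceptions were ICAM1 with a pseudocount of 0.1 (1.73) and with voom on the recovered reads (1.78), both of which compress low values less. With 1 library left out, they ranged from −2.18 to −1.98 for FERMT3, 1.36 to 1.59 for ICAM1, −0.48 to −0.36 for ITGB5, −0.33 to −0.27 for VCL and 0.24 to 0.38 for ITGAL. The others ranged from 0.08 to 0.15 for ITGB1, −0.22 to −0.04 for TLN1, −0.03 to 0.02 for ITGA4 and −0.14 to 0.01 for ILK. The sign for ITGA4 and ILK was therefore not fixed.

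Counts of called genes depended more on the fit. Of all genes, 1707 passed (966 higher, 741 lower). This was 1075 (601 and 474) with the filter at a mean of 5 FPKM, which tests fewer genes, 1052 (576 and 476) with WT replicates 1 and 2 averaged into 1 sample, and 3163 (1729 and 1434) when replicate 3 of WT and replicate 2 of LenR shared a model term. It ranged from 1006 to 1562 with 1 library left out (545 to 919 higher, 461 to 681 lower). Of the 98 other pathway genes, 29 passed (19 higher, 10 lower). This was 15 (11 and 4) with the WT replicates averaged, 45 with that shared term (19 lower), and 15 to 22 with 1 library left out (11 to 16 higher, 3 to 7 lower). The cause of the gain with the term was not tested.

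The replicate numbers did not pair the samples: deviations of same-numbered libraries from their group means correlated at 0.02, −0.56 and −0.68. Blocking on replicate number, 907 genes passed (496 and 411), 13 of them other pathway genes (11 and 2). With this block VCL (−0.31), ITGB5 (−0.43) and PDLIM1 (adjusted p = 0.0774) did not pass.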
